A study of Mus musculus with 48 samples.

Results

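The membrane-bound mucins are large glycoproteins that stay anchored in the outer membrane of epithelial cells. The set described here has 5 members, Muc1, Muc4, Muc13, Muc16 and Muc20, and for each the brightest probe set that carried the gene's symbol alone was taken. That rule found 4 of the 5 genes among 22180 genes with such a probe set: Muc1, Muc4, Muc13 and Muc16 each had 1, and Muc20 had none. The sole entry annotated to Muc20 was annotated to Muc4 as well, so no value of Muc20 is given. Values are log2 signals, on which a difference of 1 is a 2-fold difference, and they are compared between groups for 1 gene at a time, never between genes.

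The samples were whole tissue from the junction of oesophagus and stomach of mice, on 48 arrays in 16 groups of 3, from animals housed at 2 facilities named MRI and Freising. The study used pL2, an interleukin-1 beta transgene that models Barrett oesophagus, the replacement of the squamous lining by a columnar one. In that model a viral promoter active in squamous epithelium of the upper gut drives the transgene. At MRI, on chow, there were 6 pL2 lines with altered Notch genes: Notch1fl_fl, Notch2fl_fl and Notch2IC_LacZ, each with an Lgr5 driver (a stem cell gene) or a Dclk driver (a tuft cell gene). Those mice were 9 to 13 months old and had their tamoxifen age given as 3 to 6 months, while the labels of all other groups give none, so the pL2 mice they are set against are not described as tamoxifen-treated. The other MRI groups, on chow as well, were pL2_IL8 at 12 and at 9 months (pL2 with overexpressed interleukin-8), pL2_FXR, pL2, FXR and wild type (WT), the last 4 at 12 months. The label FXR names the bile acid receptor and does not say which way the allele changes it. The Freising groups, all at 12 months, were pL2 on high fat diet (HFD), pL2 on chow, WT on HFD and WT on chow. Nothing in the labels says that animals were paired or gives their sex, and replicate numbers only name arrays.

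Some arrays stood apart. The mean of 7 hepatocyte markers or of 9 intestinal enterocyte markers lay above 8 on 10 arrays: 5 by the hepatocyte list (1 each of pL2_IL8 at 12 months, pL2_FXR, pL2 at MRI, WT at MRI and Lgr5 Notch1fl_fl) and 5 by the enterocyte list (1 each of the 3 Lgr5 lines, Dclk Notch1fl_fl and Dclk Notch2fl_fl). Array medians were 4.03 to 4.27, and arrays of 1 group correlated at 0.918 to 0.989 over all genes, with a median of 0.977. The tissue held both linings in every group, with group means of 11.67 to 12.19 for 7 gastric pit markers and of 7.19 to 10.60 for 12 suprabasal squamous markers. Xist exceeded the mean of the Y-linked genes on all 3 WT, all 3 FXR, all 3 pL2_FXR and 1 of 3 pL2 arrays from MRI, and on none of the 12 arrays from Freising. In the Notch lines, Lgr5 Notch1fl_fl replicate 2 and Dclk Notch1fl_fl replicate 3 had both high. Xist was at 10.75 and 8.75 there, and the Y-linked mean at 6.97 and 7.82. The reason was not tested.

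Membrane mucins carry long, densely O-glycosylated extracellular stretches that form a layer close to the cell surface, beneath the gel made by secreted mucins. Most are cleaved near the membrane, so that the outer part can be shed, and their cytoplasmic tails pass signals inward. Muc1, found on most simple epithelia and abundant on the gastric surface, binds beta-catenin and receptor kinases through its tail. Muc4 has EGF-like domains and is a partner of the receptor ErbB2. Muc13 is a smaller mucin of the intestinal and gastric surface. Muc16, known in human as the carrier of the CA125 antigen, binds mesothelin. Muc20 is known in human as a binding partner of the receptor MET.

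By RefSeq's annotation of assembly GRCm38.p6, Muc4 and Muc20 are neighbours on chromosome 16 on opposite strands with overlapping spans, and Muc13 lies 13 protein-coding genes from Muc20 on the same chromosome. Muc1 is on chromosome 3 and Muc16 on chromosome 9. The entry that carries both symbols had log2 signals of 3.18 to 5.41 with a median of 3.74. It was the highest on pL2_Lgr5_Notch2IC_LacZ replicates 2 and 1 (5.41 and 5.21) and on pL2_Dclk_Notch2IC_LacZ replicate 3 (5.06). These signals are assigned to neither gene.

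The 250 bases before the annotated starts of Muc13 and Muc4, which differed between groups, and of Muc1, which was not called in any comparison of the fit to all arrays, are shown so that the letters around the starts can be compared. They were read from RefSeq's GRCm38.p6 promoter windows, at chr16:33793787-33794036 (plus strand) for Muc13, chr16:32735636-32735885 (plus strand) for Muc4 and chr3:89228806-89229055 (plus strand) for Muc1. Each is written 5′ to 3′, and capitals mark the motif matches described after them.
Muc13: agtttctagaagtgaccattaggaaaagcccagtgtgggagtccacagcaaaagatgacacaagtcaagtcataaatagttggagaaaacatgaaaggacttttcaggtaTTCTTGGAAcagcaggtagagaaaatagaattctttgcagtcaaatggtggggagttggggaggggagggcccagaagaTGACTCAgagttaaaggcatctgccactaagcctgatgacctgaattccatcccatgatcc
Muc4: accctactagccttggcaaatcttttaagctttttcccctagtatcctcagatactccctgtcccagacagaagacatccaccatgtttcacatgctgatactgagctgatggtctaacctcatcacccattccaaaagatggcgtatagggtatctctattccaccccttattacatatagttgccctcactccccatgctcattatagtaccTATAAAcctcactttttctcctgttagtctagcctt
Muc1: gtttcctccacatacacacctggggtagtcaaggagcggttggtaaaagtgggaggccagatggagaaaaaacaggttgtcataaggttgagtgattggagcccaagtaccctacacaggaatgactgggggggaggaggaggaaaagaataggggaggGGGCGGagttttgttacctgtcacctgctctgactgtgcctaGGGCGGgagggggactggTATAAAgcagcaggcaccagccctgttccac

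The letters searched on both strands were TATAAA (the TATA box), GGGCGG (a GC box), TGANTCA (the AP-1 site), TTCNNNGAA (the STAT site), CACGTG (an E-box), AGATAA for GATA factors and the NF-kB consensus. Muc4 and Muc1 both hold TATAAA close to the start, 36 to 31 bases before it in Muc4 and 31 to 26 bases before it in Muc1. TATAAA at any position and on either strand was found in 12.4% of 32851 promoter windows cut to the same length. The share that holds it this close to the start was not counted. Muc13 holds no TATAAA in this window. It holds TGACTCA 61 to 55 bases before the start, a match to AP-1 letters that 6.75% of windows hold, and TTCTTGGAA 140 to 132 bases before it, a match to STAT letters that 7.02% of windows hold. Muc1 holds GGGCGG at 91 to 86 and again at 49 to 44 bases before its start, as 32.7% of windows do at least once. None of these 3 windows matched the NF-kB consensus, the E-box or the GATA letters, which 7.25%, 6.02% and 9.99% of windows hold. The AP-1 and STAT matches do not overlap, and a match describes letters only. RefSeq gives Muc13 a further window that does not end at the gene start. It holds a match to AP-1 letters, TGAGTCA, 179 to 173 bases before the window's end. The window for Muc16, which does not end at the gene start either, held none of these motifs.

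Over the 16 groups, Muc13 and Muc4 varied beyond the spread within groups and Muc1 and Muc16 did not pass. Limma's moderated F test over the 16 group means gave F = 15.3 for Muc13 (adjusted p = 2.01e-08) and F = 7.76 for Muc4 (adjusted p = 1.27e-05). It gave F = 1.27 for Muc1 (adjusted p = 0.325) and F = 1.45 for Muc16 (adjusted p = 0.228). Of all 15242 genes tested, 52.3% were called in the same test, so 2 of 4 members called is close to the background share. By p-value Muc13 was 31st and Muc4 395th of those genes.

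**Figure D1:**
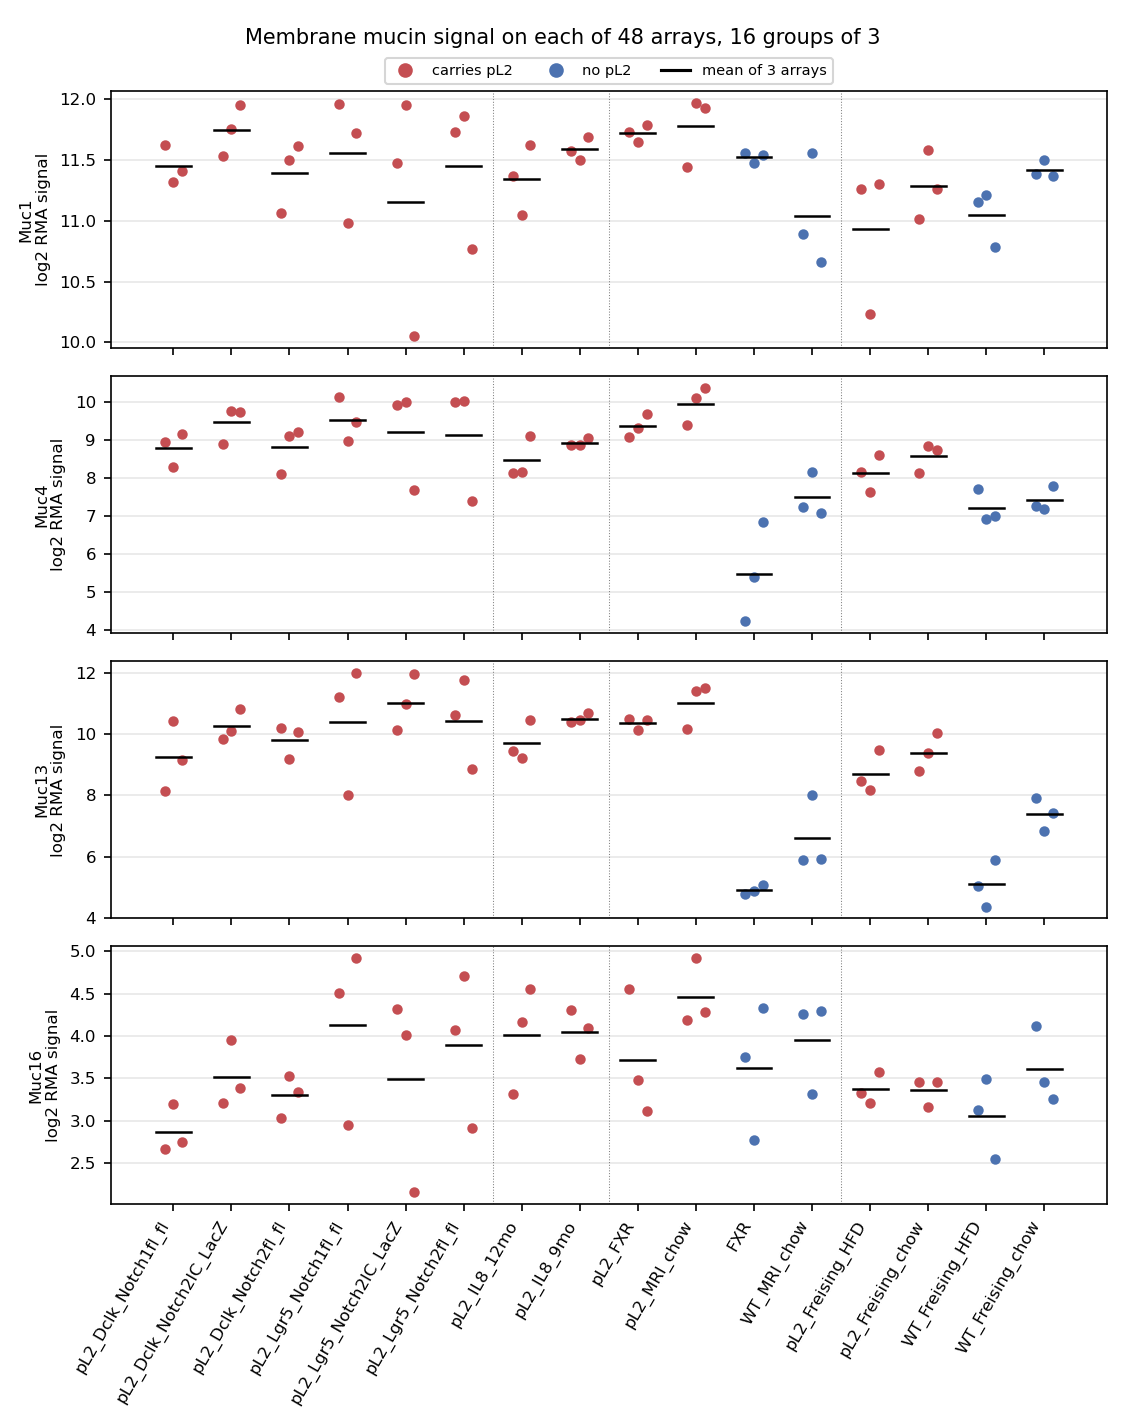
Log2 signal of Muc1, Muc4, Muc13 and Muc16 (vertical axes, 1 panel each) on every array of the 16 groups (horizontal axis), with points for arrays, red for groups with pL2 and blue for groups without, and black bars for means of 3 arrays. Muc13 lies between 8.0 and 12.00 on the red points and between 4.37 and 8.01 on the blue ones, while the colours overlap widely for Muc1 and Muc16.

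The Muc13 signal separated arrays with the transgene from those without almost completely. On the 36 arrays with pL2 it ran from 8.0 through a median of 10.16 to 12.00, against 4.37, 5.90 and 8.01 on the 12 arrays without it, and 35 of the 36 lay above every array without pL2. These arrays come from several lines and 2 facilities, and the comparisons within lines are given below. The order of the group means began with pL2_Lgr5_Notch2IC_LacZ at 11.03 ± 0.92 and pL2 at MRI at 11.02 ± 0.74 (SD, n = 3 in each group). It ended with WT on chow at Freising at 7.40 ± 0.54, WT at MRI at 6.61 ± 1.21, WT on HFD at 5.10 ± 0.77 and FXR at 4.91 ± 0.17. All 12 groups with pL2 stood above all 4 without it in this order, and the lowest of the 12 was pL2 on HFD at 8.71 ± 0.70. Of the 15 pairs of neighbours in the order, 1 had arrays that did not overlap, pL2 on HFD and WT on chow at Freising; the others cannot be ordered beyond their spread.

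Muc4 followed the same division with more overlap. It ran from 7.39 through a median of 9.07 to 10.38 on the 36 arrays with pL2, against 4.22, 7.12 and 8.15 on the 12 without, and 30 of the 36 lay above every array without pL2. Group means began with pL2 at MRI at 9.96 ± 0.50 and Lgr5 Notch1fl_fl at 9.53 ± 0.58. They ended with WT at MRI at 7.49 ± 0.58, WT on chow at Freising at 7.42 ± 0.34, WT on HFD at 7.21 ± 0.43 and FXR at 5.48 ± 1.31. The largest gap between neighbours, 1.73, set FXR below WT on HFD, and this was the sole neighbouring pair without overlap. Across the 48 arrays Muc4 correlated with Muc13 at Pearson r = 0.83, and at 0.94 across the 16 group means, as a description with the division by transgene included in both.

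Muc1 varied little between groups. Its lowest, median and highest signals were 10.05, 11.50 and 11.97 over the 48 arrays, and the 16 group means lay between 11.78 ± 0.30 in pL2 at MRI and 10.93 ± 0.61 in pL2 on HFD. No neighbouring groups in its order were free of overlap, and no gap between neighbours exceeded 0.14. Muc16 ran from 2.16 through 3.49 to 4.92 and lay above the array median on 16 of 48 arrays, so that it passed the filter on a minority of arrays. The deposited table gives no detection call, and how much of the Muc16 signal is background cannot be read from it. The group means of Muc16 lay between 4.46 ± 0.40 in pL2 at MRI and 2.87 ± 0.29 in Dclk Notch1fl_fl, with no neighbouring pair free of overlap.

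The effect of the transgene on chow was asked as pL2 against WT within each facility, averaged over the 2. Muc13 was 9.25-fold and Muc4 3.53-fold higher in pL2. At MRI the Muc13 signals of pL2 mice were 10.17, 11.40 and 11.50, against 5.89, 8.01 and 5.94 for WT mice. At Freising they were 8.79, 9.39 and 10.03 with pL2, against 7.92, 6.84 and 7.44 for WT. In both facilities every pL2 array lay above every WT array. How many of all genes separate in this way was not counted, here or in the later comparisons. Averaged over the facilities Muc13 rose by 3.21 ± 0.51 on the log2 scale (SE; limma adjusted p = 5.34e-05).

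Muc4 signals at MRI were 9.41, 10.10 and 10.38 with pL2, against 7.25, 8.15 and 7.07 for WT. At Freising pL2 mice had 8.14, 8.84 and 8.75, against 7.27, 7.18 and 7.80 for WT. Groups did not overlap within either facility, and averaged over them Muc4 rose by 1.82 ± 0.41 (limma adjusted p = 0.00155). For Muc1 the difference was 0.31 ± 0.23 (limma adjusted p = 0.364, 95% interval -0.16 to 0.77) and for Muc16 0.13 (limma adjusted p = 0.840). Thus 2 of the 4 mucins tested were called, both higher, where 21.9% of all genes were called. Fewer cells of a type and less RNA per cell cannot be told apart in whole tissue, here or in the later comparisons.

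Other tissue components differed in the same comparison, where 21.9% of all genes were called. Smooth muscle markers fell in 6 of 6 and neutrophil markers rose in 5 of 8, and suprabasal squamous markers rose in 4 of 12. Among the epithelial lists 0 of 7 gastric pit markers, 1 of 7 goblet markers (Fcgbp), 1 of 7 columnar markers (Krt20) and 1 of 9 enterocyte markers (Vil1) were called, all higher. Basal squamous markers rose in 3 of 7 (among them Krt14), while parietal markers fell in 2 of 4 (Cckbr and Slc26a7) and gastric neck and chief markers in 1 of 6 (Bhlha15). At MRI the gastric pit mean was 12.06 to 12.22 in pL2 and 11.55 to 12.08 in WT arrays, and the smooth muscle mean was 8.62 to 10.69 in pL2 and 11.70 to 12.18 in WT arrays. At Freising the gastric pit mean was 11.80 to 11.98 in pL2 and 11.87 to 11.91 in WT arrays, and the smooth muscle mean 8.25 to 11.66 in pL2 and 10.96 to 11.55 in WT arrays. Tissue marker means were also used as covariates. At MRI the skeletal muscle mean was 4.09 to 5.73 in pL2 and 6.43 to 7.22 in WT arrays. The suprabasal squamous mean there was 9.84 to 10.00 in pL2 and 8.77 to 9.73 in WT arrays. With the suprabasal squamous and skeletal muscle means Muc13 kept its call (3.37, limma adjusted p = 0.0165) and Muc4 did not pass (1.29, limma adjusted p = 0.218). With the mesothelium and gastric pit means both kept it, at 3.56 for Muc13 (limma adjusted p = 7.87e-05) and 1.36 for Muc4 (limma adjusted p = 0.00416). Without the 10 arrays that stood apart, the differences were 2.91 for Muc13 (limma adjusted p = 1.55e-04) and 1.66 for Muc4 (limma adjusted p = 0.00805).

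Within MRI alone, Muc13 rose by 4.41 ± 0.72 (limma adjusted p = 6.69e-05), a 21.3-fold difference, and Muc4 by 2.48 ± 0.58 (limma adjusted p = 0.00204), with 23% of all genes called. With the squamous and skeletal muscle covariates neither passed, at 4.54 for Muc13 (limma adjusted p = 0.0609) and 1.47 for Muc4 (limma adjusted p = 0.344). Neither marker mean overlapped between these pL2 and WT arrays, so that fit separates them poorly from genotype. It called 21 genes in place of 3512. With the mesothelium and gastric pit covariates both passed, at 4.73 for Muc13 (limma adjusted p = 1.92e-04) and 1.66 for Muc4 (limma adjusted p = 0.00876). Both passed without the arrays that stood apart, at 3.81 for Muc13 (limma adjusted p = 0.00147) and 2.15 for Muc4 (limma adjusted p = 0.0274), and with a covariate of sex-linked genes at 4.04 and 2.39. Muc1 had signals of 11.44, 11.97 and 11.93 in pL2 and 10.89, 11.56 and 10.66 in WT arrays, a difference of 0.74 ± 0.32 that did not pass (limma adjusted p = 0.0940). It passed when WT replicate 2, the WT array with the highest Muc1, was left out, at 1.01.

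Within Freising on chow neither gene passed. Neither overlapped between the groups, which describes 3 against 3 arrays and is no test. Muc13 differed by 2.0 ± 0.72 (limma adjusted p = 0.148, unadjusted p = 0.00875) and Muc4 by 1.16 ± 0.58 (limma adjusted p = 0.313), where 1.64% of all genes were called. Without the arrays that stood apart, none of which is from Freising, Muc13 passed at the same difference (limma adjusted p = 0.0456). The titles of all 3 pL2 arrays and of none of the 3 WT arrays carry an added ending whose meaning is not given, and with it as a covariate Muc13 gave 2.5 (limma adjusted p = 0.140). The transgene difference at Freising minus that at MRI was -2.41 ± 1.02 for Muc13 (limma adjusted p = 0.189) and -1.32 for Muc4 (limma adjusted p = 0.393); neither passed, and 1.76% of all genes did. The 95% interval of the Muc13 difference between facilities was -4.48 to -0.34.

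The transgene was also tested on HFD at Freising, where Muc13 again rose. There pL2 mice had 8.46, 8.17 and 9.5, against 5.05, 4.37 and 5.90 for WT mice. The lowest WT signal, 4.37, lay near the array medians of 4.03 to 4.27, so a fold difference is rough here. The groups did not overlap, and the difference was 3.61 ± 0.72 (limma adjusted p = 0.00608), 12.2-fold. It missed the threshold in a fit of the compared groups alone (limma adjusted p = 0.0508) and without WT_Freising_HFD replicate 2, the lowest of the WT arrays (3.24, limma adjusted p = 0.0759). Muc4 lay at 8.17, 7.63 and 8.62 with pL2 and at 7.71, 6.92 and 7.0 for WT, which overlap, and differed by 0.93 ± 0.58 (limma adjusted p = 0.478). So 1 of 4 members was called, against 1.16% of all genes.

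Diet itself gave no called member. In pL2 mice Muc13 differed by -0.69 ± 0.72 between HFD and chow (limma adjusted p = 0.987) and Muc4 by -0.44 ± 0.58 (limma adjusted p = 0.997). No gene at all was called there (0%), with 0 of 4 members and 872 genes at an unadjusted p below 0.05. In WT mice the Muc13 arrays did not overlap, with 5.05, 4.37 and 5.90 on HFD and 7.92, 6.84 and 7.44 on chow. The difference of -2.30 ± 0.72 had an unadjusted p of 0.00307 and a limma adjusted p of 0.530, with 0.164% of all genes called. Its size is rough, since the lowest HFD signal lay near the array medians. The diet difference in pL2 minus that in WT mice was 1.60 ± 1.02 for Muc13 (limma adjusted p = 0.945), with 0.0197% of genes called. Muc4 stayed within 0.44 of 0 in size in each of these 3 diet contrasts.

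The widest mucin differences of the series were between pL2_FXR and FXR mice, both from MRI. Muc13 had 10.50, 10.14 and 10.47 in pL2_FXR and 4.77, 4.87 and 5.09 in FXR arrays. The groups were narrow and far apart, with a difference of 5.46 ± 0.72 (limma adjusted p = 2.63e-06), 44-fold. Muc4 had 9.09, 9.32 and 9.69 in pL2_FXR and 4.22, 5.39 and 6.84 in FXR arrays, a difference of 3.89 ± 0.58 (limma adjusted p = 1.71e-05), 14.8-fold. The Muc13 signals and the lowest Muc4 signal of FXR arrays lay near the array medians of 4.03 to 4.27, so both fold differences are rough. Muc1 differed by 0.19 (limma adjusted p = 0.757), with 11.73, 11.65 and 11.79 in pL2_FXR and 11.56, 11.47 and 11.54 in FXR arrays, and Muc16 by 0.11 (limma adjusted p = 0.923). Of all genes 10.1% were called, and 2 of 4 members, which passed under each of the 18 alternatives run for this comparison.

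Squamous markers moved with this comparison as well: suprabasal means were 9.36 to 9.94 in pL2_FXR and 6.59 to 7.51 in FXR arrays, with 6 of 12 markers called higher, while gastric pit means were 12.05 to 12.26 in pL2_FXR and 11.69 to 12.19 in FXR arrays. Neutrophil means were 6.51 to 7.04 in pL2_FXR and 3.82 to 3.94 in FXR arrays, with 5 of 8 markers called higher. With the squamous and skeletal muscle means as covariates Muc13 gave 6.15 (limma adjusted p = 0.00204) and Muc4 3.98 (limma adjusted p = 0.00406).

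FXR against WT at MRI asked for the effect of the FXR allele without the transgene. Muc4 lay lower on every FXR array (4.22, 5.39 and 6.84) than on any WT array (7.25, 8.15 and 7.07). The difference of -2.01 ± 0.58 did not pass (limma adjusted p = 0.0567). With single arrays left out it ran from -2.68 without FXR replicate 3, the highest FXR array, where it passed (limma adjusted p = 0.0131), to -1.38 without FXR replicate 1, the lowest (limma adjusted p = 0.321). It passed with the squamous and skeletal muscle covariates (-3.41, limma adjusted p = 0.0110) and with the mesothelium and gastric pit covariates (-2.46, limma adjusted p = 2.77e-04). Muc13, with 4.77, 4.87 and 5.09 in FXR and 5.89, 8.01 and 5.94 in WT arrays, did not overlap either and differed by -1.70 ± 0.72 (limma adjusted p = 0.233). That difference was -1.0 without WT replicate 2, the WT array with the highest Muc13. Of all genes 2.12% were called, and no member. At an unadjusted p below 0.05 were 2 of 4 members and 2408 of the 15242 genes. Suprabasal squamous markers fell in 6 of 12, basal ones in 5 of 7 and skeletal muscle markers in 3 of 5. The part of these in the mucin values was tested only by the covariates above. The suprabasal squamous and skeletal muscle means did not overlap between FXR and WT arrays, so that fit separates them poorly from genotype.

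In mice with pL2 the same allele gave no called member, and pL2_FXR against pL2 differed by -0.60 ± 0.58 for Muc4 (limma adjusted p = 0.941) and by -0.65 ± 0.72 for Muc13 (limma adjusted p = 0.949), with 0.0853% of genes called. The FXR difference in pL2 mice minus that in mice without pL2 was 1.41 for Muc4 (limma adjusted p = 0.430) and 1.05 for Muc13 (limma adjusted p = 0.677), with 0.138% of genes called. Neither passed, so a different effect of the allele with and without pL2 was not shown.

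**Figure D2:**
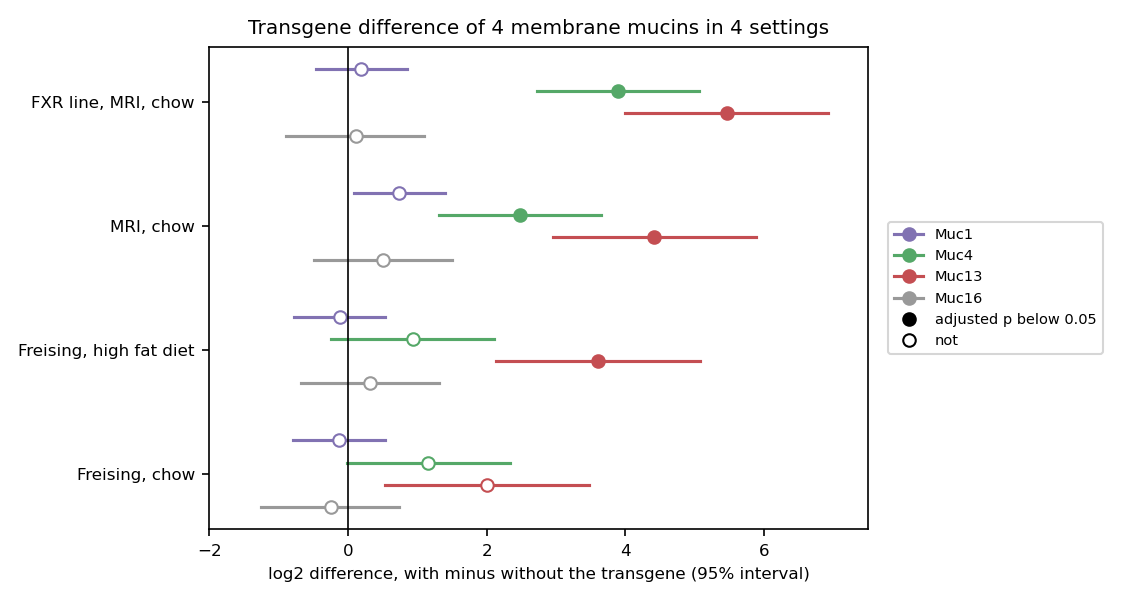
Log2 difference between mice with and without the transgene (horizontal axis, lines for 95% intervals) for the 4 measured mucins in 4 settings (vertical axis), with filled points for an adjusted p below 0.05 from limma. Muc13 is called in 3 of the 4 settings at 5.46, 4.41 and 3.61 and Muc4 in 2 at 3.89 and 2.48, while Muc1 and Muc16 are called in none.

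The 4 transgene settings can be read side by side. The Muc13 difference was 5.46 in the FXR line, 4.41 at MRI, 3.61 on HFD at Freising and 2.0 on chow at Freising, and the Muc4 difference 3.89, 2.48, 0.93 and 1.16 in the same order. The Muc13 means behind them were 10.37, 11.02, 8.71 and 9.40 with pL2, against 4.91, 6.61, 5.10 and 7.40 without, so that both sides of the comparison varied between settings.

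The IL8 line at 12 months was set against pL2 at MRI of the same age. Muc4 lay at 8.13, 8.17 and 9.11 in pL2_IL8 and at 9.41, 10.10 and 10.38 in pL2 arrays, without overlap, and differed by -1.5 ± 0.58 (limma adjusted p = 0.162). Muc13 lay at 9.46, 9.22 and 10.45 in pL2_IL8 and at 10.17, 11.40 and 11.50 in pL2 arrays and differed by -1.31 ± 0.72 (limma adjusted p = 0.357). No member was called, where 1.82% of all genes were. At an unadjusted p below 0.05 were 1 of 4 members and 2588 of the 15242 genes. At 12 against 9 months in the IL8 line the differences were -0.47 for Muc4 and -0.80 for Muc13 (limma adjusted p = 0.948 and 0.924), and no gene was called (0%), with 1184 at an unadjusted p below 0.05. Xist exceeded the Y-linked mean on 1 of 3 arrays at 12 months and on 3 of 3 at 9 months.

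None of the 4 mucins was called in any Notch line against pL2 at MRI, a reference that all 6 of these comparisons and the IL8 comparison share. Of all genes, 0.144% were called for Lgr5 Notch1fl_fl, 0.0525% for Lgr5 Notch2fl_fl and 0.138% for Lgr5 Notch2IC_LacZ. For the Dclk lines the shares were 0% for Notch1fl_fl (1589 genes at an unadjusted p below 0.05), 0.256% for Notch2fl_fl and 0.0197% for Notch2IC_LacZ. Among these 6 comparisons, the one with the most members at an unadjusted p below 0.05, 3 of 4, was Dclk Notch1fl_fl. There Muc16 lay at 2.66, 3.2 and 2.75 and at 4.19, 4.92 and 4.28 in pL2 arrays, without overlap, a difference of -1.59 ± 0.49 (limma adjusted p = 0.308). Muc4 in that line lay at 8.94, 8.30 and 9.15, below all 3 pL2 arrays, and differed by -1.17 ± 0.58 (limma adjusted p = 0.479). Muc13 lay at 8.16, 10.42 and 9.17, overlapping pL2, and differed by -1.77 ± 0.72 (limma adjusted p = 0.370).

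Comparisons among the Notch lines gave no call either. Notch2IC against Notch2 floxed differed for Muc13 by 0.61 with the Lgr5 driver and 0.43 with the Dclk driver (limma adjusted p = 0.912 and 0.998), where 0.0722% and 0.0328% of genes were called. Notch1 floxed against Notch2 floxed over both drivers differed by -0.29 for Muc13 (limma adjusted p = 0.908), with 0.0722% of genes called. The Dclk against the Lgr5 lines differed by -0.85 ± 0.42 for Muc13 (limma adjusted p = 0.325) and by -0.61 ± 0.28 for Muc16 (limma adjusted p = 0.287), with 0.945% of genes called.

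**Figure D3:**
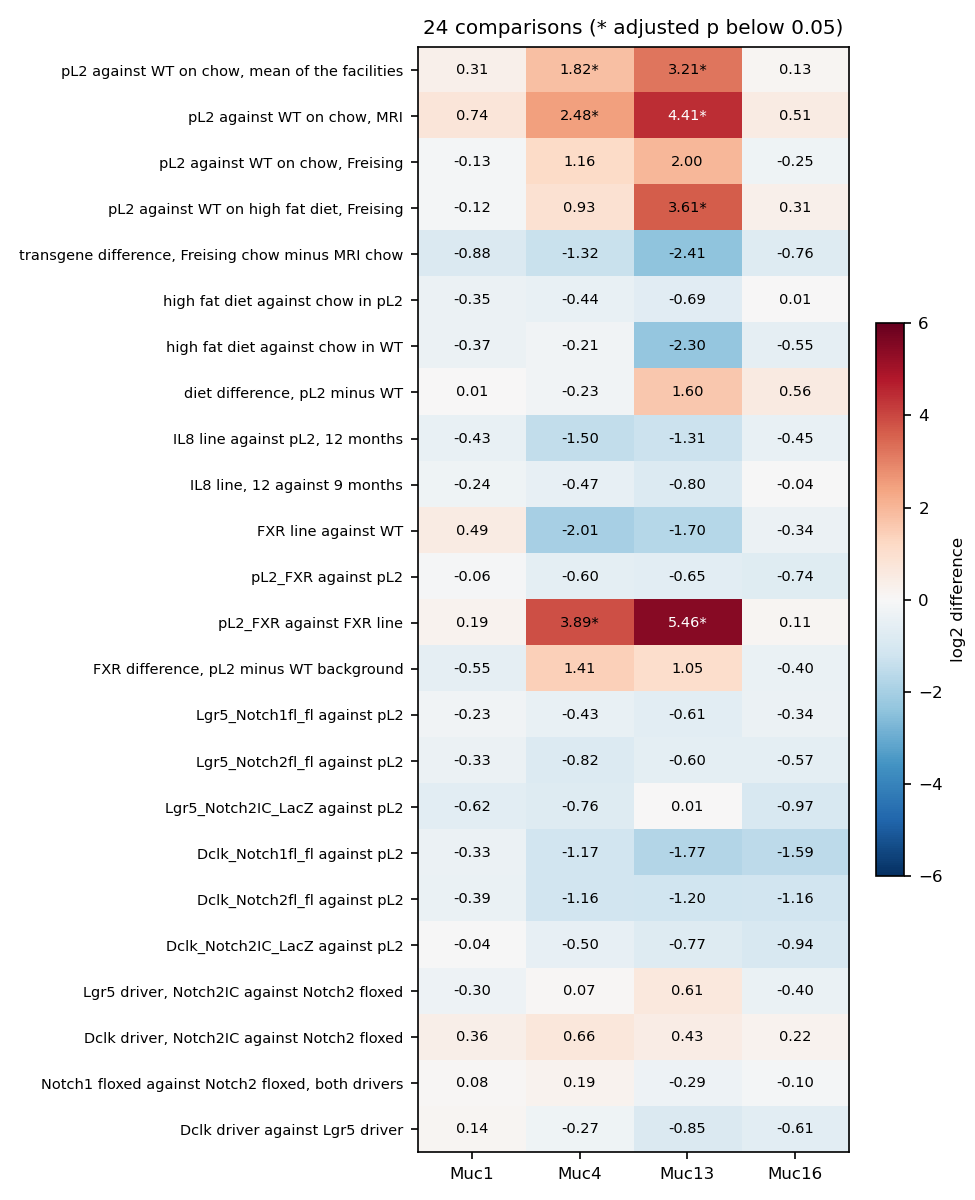
Log2 differences of the 4 measured mucins (columns) in the 24 comparisons (rows), first-named group minus second, with colour for size and an asterisk for an adjusted p below 0.05 from limma. The 7 asterisks of the 96 values are all positive, lie in 4 comparisons of mice with against mice without pL2 and belong to Muc4 and Muc13.

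The 3 highest Muc13 signals of the series lay on the 3 Lgr5 arrays with the highest enterocyte marker means. Lgr5 Notch1fl_fl replicate 3 had 12.00 with an enterocyte mean of 9.33, Lgr5 Notch2IC_LacZ replicate 3 had 11.97 with 9.98, and Lgr5 Notch2fl_fl replicate 2 had 11.78 with 9.48. Goblet marker means on the same arrays were 10.51, 9.77 and 10.50. High Muc13 was not limited to such arrays, since pL2 replicates 3 and 2 at MRI came next with 11.50 and 11.40 at enterocyte means of 5.80 and 5.35. In Lgr5 Notch1fl_fl the other 2 arrays were at 11.22 and 8.0, which gave the largest within-group SD of Muc13, 2.12; the array at 8.0 was replicate 2, whose hepatocyte mean was 11.35. Lgr5 Notch2IC_LacZ replicate 3 had the lowest Muc1 of all arrays, 10.05, together with Muc4 at 7.68 and the gastric pit mean at 10.90, while Muc13 there was at 11.97.

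Apart from the groups, the mucins varied between arrays of the same group, and this variation was compared with marker means as deviations from group means over 48 arrays. Muc1 followed the gastric pit markers closely, with Pearson r = 0.92 and Spearman rho = 0.88, both at the smallest p that 100000 permutations within groups allow, 1e-05 (adjusted p = 1.7e-04 over 50 relations). Without the 2 arrays farthest from the median of the marker mean r was 0.89, and without the arrays that stood apart 0.87 over 37 arrays. Muc4 followed the same markers at r = 0.78 and rho = 0.80 (permutation adjusted p = 2.5e-04 and 1.7e-04), with 0.75 and 0.69 under the same omissions. Both also followed the columnar keratin and junction markers. For Muc1 that relation was r = 0.82 and rho = 0.81 (permutation adjusted p = 1.7e-04 and 6.0e-04), with 0.78 and 0.93 under the omissions. For Muc4 it was r = 0.70 and rho = 0.69 (permutation adjusted p = 4.0e-04 and 6.0e-04), with 0.63 and 0.76. Muc1 and Muc4 deviated together at r = 0.77 and rho = 0.78 (permutation adjusted p = 1.7e-04 for both). Here r was 0.72 without the 2 arrays farthest from the median of Muc1, and 0.63 without the arrays that stood apart.

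Muc13 followed the goblet markers, which are made by mucus-secreting intestinal cells, at r = 0.71 and rho = 0.56 (permutation adjusted p = 0.00375 and 0.0142). That relation stayed at 0.63 without the 2 farthest arrays and was 0.37 without the arrays that stood apart. Muc13 also followed the mesothelium markers, at r = 0.42 and rho = 0.47 (permutation adjusted p = 0.0141 and 0.0181). The omissions gave 0.44 and 0.38 there. Krt19 is in both the mesothelium and the columnar list, and the mesothelium relation without it was not tested. With the enterocyte markers Muc13 passed by rho alone, at r = 0.54 and rho = 0.51 (permutation adjusted p = 0.0575 and 0.0247). The omissions gave 0.47 and 0.15 there. The relation of Muc13 to the columnar markers was r = 0.64 and rho = 0.55 (permutation adjusted p = 0.0141 and 0.017), with 0.49 and 0.62 under the omissions. With the gastric pit markers Muc13 gave r = 0.35 and rho = 0.34 (permutation adjusted p = 0.208 and 0.141), which did not pass, and with Muc4 r = 0.34 and rho = 0.39 (permutation adjusted p = 0.174 and 0.081), 0.63 without the arrays that stood apart. Muc1 deviated against the suprabasal squamous markers at r = -0.60 and rho = -0.52 (permutation adjusted p = 0.0445 and 0.0181), with -0.42 and -0.47 under the omissions. It followed the parietal markers at r = 0.66 and rho = 0.50 (permutation adjusted p = 0.0207 and 0.0197), with 0.55 and 0.63. Some weaker relations of Muc1 and Muc16 also passed by rho and are not listed.

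**Figure D4:**
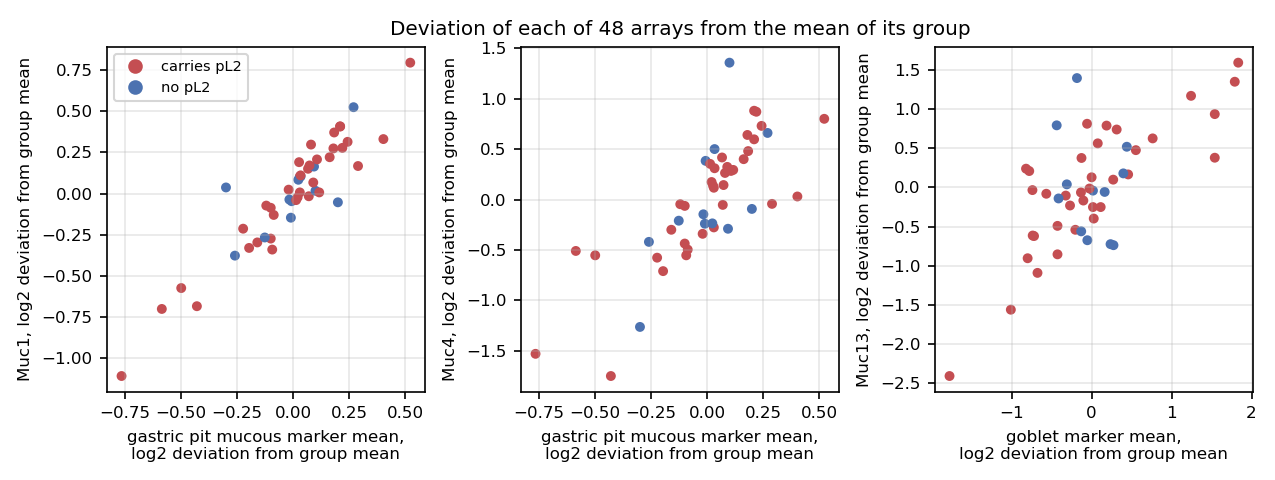
Deviation of each of 48 arrays from its group mean on the log2 scale, for Muc1 and Muc4 against the mean of the gastric pit markers and for Muc13 against the mean of the goblet markers, with points for arrays, red with pL2 and blue without. Points rise together at r = 0.92, 0.78 and 0.71, in panel order from left to right, and in the Muc13 panel a few points with high goblet means extend the cloud.

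The genes whose signals were most like each mucin over the 48 arrays were found over all tested genes, with group differences included. For Muc13 they were Gpa33, an intestinal surface antigen (Pearson r = 0.95 over arrays and 0.96 over the 16 group means), Enpp3 (0.93 and 0.94), an ectonucleotidase, and Tmem236 (0.92 and 0.94). For Muc4 they were Pigr, which carries immunoglobulin A through epithelium (0.94 and 0.96), the oral and oesophageal transcription factor gene Pax9 (0.92 and 0.96) and Dmbt1, a secreted mucosal scavenger receptor (0.92 and 0.93). For Muc1 they were Golm1, a Golgi membrane protein gene (0.94 and 0.91), Gmds, of fucose nucleotide synthesis (0.92 and 0.90), and the protease gene Bace2 (0.92 and 0.90). For Muc16 the best, Dusp4, Basp1 and Cela1, reached 0.70, 0.68 and 0.66 over arrays. These are descriptions over arrays that share the same groups.

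Among other mucin genes, the secreted mucin gene Muc5b also rose with pL2. Of 4 secreted mucins tested, 1 was called in pL2 against WT on chow over both facilities, where 21.9% of all genes were called. It was Muc5b, a gel-forming mucin of airway and glands, which rose by 3.15 ± 0.76 (limma adjusted p = 0.00295). At MRI it averaged 10.89 ± 0.21 with pL2, against 6.34 ± 0.95 for WT, and on chow at Freising 9.36 ± 0.34 with pL2, against 7.61 ± 0.62 for WT (SD, n = 3). In pL2_FXR mice it averaged 11.09 ± 0.77, against 5.01 ± 1.56 for FXR mice. In pL2_FXR against FXR it rose by 6.08 ± 1.08 (limma adjusted p = 2.50e-04). The gastric gel mucin Muc5ac differed by -0.04 ± 0.21 (limma adjusted p = 0.915) in the mean of the facilities, the gland mucin Muc6 by -0.28 ± 0.24 (limma adjusted p = 0.448) and the goblet cell mucin Muc2 by 0.02 ± 1.01 (limma adjusted p = 0.994). The median of the secreted list was -0.01, the same as that of all genes.

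Of 7 other membrane-anchored mucins and sialomucins tested, none rose in the mean of the facilities and 3 fell, where 21.9% of all genes were called. The list median was -0.13. The 3 were Emcn (-1.57 ± 0.25, limma adjusted p = 6.62e-05), Podxl (-1.22 ± 0.21, limma adjusted p = 1.32e-04) and Mcam (-1.60 ± 0.39, limma adjusted p = 0.00337). Emcn and Podxl are sialomucins of vessel walls, and Mcam is an adhesion molecule of vessels and muscle, so these are not epithelial surface mucins. Of the epithelial ones Muc3a differed by 0.99 ± 0.39 (limma adjusted p = 0.0607), Muc15 by 0.11 ± 0.36 (limma adjusted p = 0.872) and Muc3 by -0.13 ± 1.04 (limma adjusted p = 0.954). Muc15 was called in the FXR comparisons, lower in FXR against WT (-2.01 ± 0.51, limma adjusted p = 0.0302) and higher in pL2_FXR against FXR (1.73 ± 0.51, limma adjusted p = 0.0253); these share the FXR arrays.

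Of 20 enzymes tested that build the O-glycans of mucins, 2 rose and 2 fell in pL2 against WT over both facilities, where 21.9% of all genes were called. The list median was 0.18, against -0.01 for all genes. Galnt12 (0.84 ± 0.23, limma adjusted p = 0.00863) and Galnt6 (0.49 ± 0.18, limma adjusted p = 0.0490), which start O-glycan chains, were higher. Galnt2 of the same family (-0.44 ± 0.14, limma adjusted p = 0.0250) and B3gnt7, which extends keratan sulfate chains (-0.74 ± 0.21, limma adjusted p = 0.00986), were lower. In pL2_FXR against FXR none of the 20 was called by limma, where 10.1% of all genes were called.

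Of 12 EGF family ligands, their receptors and related receptors, 4 rose and 2 fell in pL2 against WT over both facilities. Of all genes 21.9% were called there, and the list median was 0.36. The receptor gene Erbb2, whose product Muc4 binds, rose by 0.49 ± 0.12 (limma adjusted p = 0.00314) and its partner Erbb3 by 0.56 ± 0.14 (limma adjusted p = 0.00376). The ligand genes Hbegf (1.36 ± 0.27, limma adjusted p = 6.17e-04) and Epgn (1.03 ± 0.35, limma adjusted p = 0.0325) rose too. Egf fell by 1.77 (SE 0.25, limma adjusted p = 1.93e-05) and Hgf, the ligand of Met, fell by 0.93 (SE 0.23, limma adjusted p = 0.00361). Met itself, whose product human Muc20 binds, differed by 0.30 ± 0.12 (limma adjusted p = 0.0705). In pL2_FXR against FXR, where 10.1% of all genes were called, 5 rose and 1 fell. Among them were Hbegf at 2.12 ± 0.39 (limma adjusted p = 4.02e-04), Epgn at 2.05 ± 0.50 (limma adjusted p = 0.00671) and Egf at -1.68 ± 0.36 (limma adjusted p = 0.00245). Of 7 binding partners and sheddases 1 rose over both facilities, against 21.9% of all genes called. It was the galectin gene Lgals3 (0.55 ± 0.17, limma adjusted p = 0.0177). Msln, the mesothelin gene, whose product Muc16 binds, differed by -0.59 ± 0.27 (limma adjusted p = 0.109).

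**Figure D5:**
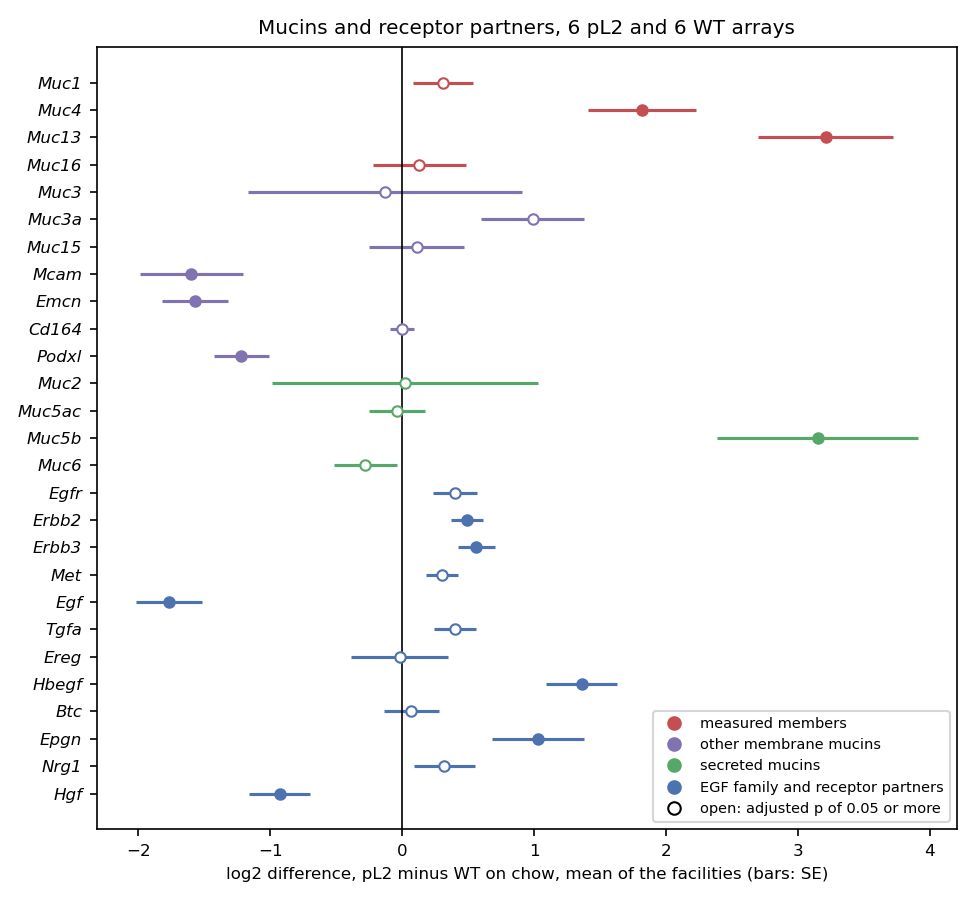
Log2 difference between pL2 and WT mice on chow, mean of the facilities (horizontal axis, bars for SE, 6 arrays of each genotype), for the measured members, other membrane mucins, secreted mucins and EGF family genes (vertical axis), with filled points for an adjusted p below 0.05 from limma. Muc13, Muc5b and Muc4 lie farthest to the right at 3.21, 3.15 and 1.82, while Egf lies farthest to the left at -1.77.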

How the data were processed

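RNA of 48 whole tissue samples was hybridised to 1 Affymetrix array each, and the authors deposited log2 signals per probe set, made by RMA in Affymetrix Expression Console per the submitters' processing notes; their versions and the genome build are not given in the sources used here. RMA subtracts background and makes the arrays' distributions equal. Differences between low signals are compressed on such arrays. Of 34390 entries, 23521 carried 1 symbol of the platform annotation, 1814 several and 9055 none. Groups came from the labels. The brightest entry of each gene was taken, and the 15242 genes above the array median on at least 3 arrays were tested.

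With limma 3.58.1 in R 4.3.3, 1 mean per group was fitted to all 48 arrays, which left 32 residual degrees of freedom. Two-sided tests of 24 comparisons were called at a Benjamini-Hochberg adjusted p below 0.05 over all tested genes. P-values measure the spread between arrays, since the labels do not say that each came from a separate mouse. Genes named were the 5 mucins, members of 20 gene lists and the 3 genes most correlated with each mucin. The members and lists were chosen with earlier results of these data known, and the correlations of deviations from group means were added after the data were seen. On simulated data with 15242 genes, a log2 change of 1 was found in 78% of the altered genes for the mean of the facilities, 62.5% at MRI and 64% at Freising. At a log2 change of 2 the shares were 95.5%, 90.5% and 91.5%. Only 200 genes were altered there, around 1 mean per gene with normal noise, while 23.0% of genes were called at MRI. The shares are averages over genes, and the share for a single mucin may differ. The number of arrays, 3 per group, limits the precision.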

Additional observations from a re-analysis of the deposited data

How the results depend on the processing

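Counts of members called were recomputed under 12 alternatives and with each of the 48 arrays left out. Array quality weights, whose estimation stopped before converging (weights of 0.194 to 5.72), called many more genes and more members: 3 in place of 2, with Muc1 added, for pL2 against WT at MRI and in the mean of the facilities, 2 in place of 0 for pL2 against WT on chow at Freising (2472 genes in place of 250), 2 in place of 1 on HFD (2839 in place of 177), 2 in place of 0 for the difference between facilities, 1 for HFD in WT, 4 for the IL8 line, 1 for FXR against WT, 3, 4 and 1 for Dclk Notch1fl_fl, Notch2fl_fl and Notch2IC_LacZ against pL2, 2 for the Dclk against the Lgr5 driver, each in place of 0, and 4 in place of 2 over the 16 groups. Squamous and skeletal muscle covariates left 1 of 2 calls in the mean of the facilities (102 genes in place of 3341) and 0 of 2 at MRI (21 in place of 3512). FXR against WT had 1 call with those covariates, with mesothelium and gastric pit covariates, or with cyclic loess, always Muc4 and lower, and the driver comparison had 1 with mesothelium and gastric pit covariates. Muc13 at Freising on chow was called (1 in place of 0) without the 10 arrays that stood apart, and on HFD it was not (0 in place of 1) in a fit of the compared groups alone. Muc16 passed the F test over the 16 groups as well when those 10 arrays were left out. With single arrays left out, the count was 0 to 1 on HFD (0 without WT_Freising_HFD replicate 2), 0 to 1 for FXR against WT (1 without FXR replicate 3) and 2 to 3 for pL2 against WT at MRI (3, with Muc1, without WT_MRI_chow replicate 2). The cause of these changes was not tested. No called difference changed sign under any alternative, and the stricter filter removed Muc16. No paired analysis was possible because the labels number no pairs and the replicate numbers only follow accession order. Signals near the array median, as for Muc16, give no firm level, and the Muc20 transcript was not measured apart from Muc4.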
